A study of Mus musculus with 15 samples.

Results

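The PDGF ligands and receptors, the 6 genes *Pdgfra*, *Pdgfrb*, *Pdgfa*, *Pdgfb*, *Pdgfc* and *Pdgfd* of the 35880 genes listed, were followed across 5 lines of LL2, a mouse Lewis lung carcinoma line that carries luciferase. The genes were taken by symbol, and the set was chosen by measured values: the *KEAP1* KO clones differ in the direction of *Pdgfrb*, so the *Pdgfrb* levels of these clones are given as a description with no test. The lines were the unedited parent (LL2 WT), the *KEAP1* KO clones #1, #2 and #3 (clones #1, #2 and #3 from here on), in which *Keap1* was edited by CRISPR, and 1 *NRF2* KO clone, in which *Nfe2l2* was edited, with 3 biologic replicates each and 15 samples in all. Every edited line grew from a single sorted cell that had received a plasmid with Cas9, GFP and the guide RNA, whereas LL2 WT is the parental line without such a step, so the edit and the passage through 1 cell cannot be told apart within a line. All lines grew in DMEM with fetal bovine serum, and neither the labels nor the methods name a drug or PDGF treatment. KEAP1 is the adaptor that marks NRF2, a transcription factor of the oxidative stress response, for degradation.

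PDGF ligands are secreted chains that pair into dimers. PDGF-A and PDGF-C act through the receptor PDGFRA, PDGF-D through PDGFRB, and PDGF-B through both. A bound dimer draws receptor molecules together, their kinase domains phosphorylate each other, and the phosphorylated tails recruit adaptors that lead to RAS, PI3 kinase, phospholipase C gamma and STAT proteins. The family is known for driving mesenchymal cells such as fibroblasts and the mural cells of vessels, and in tumors it is known as a signal from cancer cells to the surrounding stroma.

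Values are CPM, counts scaled to a common library total, which are not corrected for transcript length, so levels are compared between lines and not between genes. At the average depth of the study, 3 reads correspond to 0.1 CPM. This floor reflects counting error alone, and since the depth of single samples is unknown it is a rough one. The edited genes were checked first. *Keap1* mRNA averaged 23.0 ± 1.03 CPM (SD, n = 3, as for every mean that follows) in LL2 WT and 5.53 to 11.8 CPM in the *KEAP1* KO clones. *Nfe2l2* mRNA averaged 186 ± 19.6 CPM in the parent and 119 ± 24.0 CPM in *NRF2* KO. In clones #1, #2 and #3 it averaged 96.4, 123 and 116 CPM, so lower *Nfe2l2* mRNA does not set *NRF2* KO apart. *Nqo1*, a target of NRF2, averaged 30.3 ± 5.48 CPM in the parent, 276 to 488 CPM in the *KEAP1* KO clones and 9.82 ± 1.21 CPM in *NRF2* KO. The label of lung cancer cells was set against markers: the epithelial keratins *Krt8* (line means 75.3 to 172 CPM) and *Krt18* (296 to 534 CPM) were present, whereas *Epcam*, *Cdh1* and *Nkx2-1* were under the floor and *Scgb1a1* was at 0 in all 15 samples. Over the 15 samples *Krt19* averaged 1.64 CPM and *Sftpb*, a lung epithelial marker, 0.325 CPM. The log2 fold changes of *Sftpb* from LL2 WT were 1.66, 1.92 and 2.54 in clones #1, #2 and #3 (adjusted p = 0.0167, 0.00533 and 0.000827, limma). *Vim*, a mesenchymal filament gene, averaged 4289 ± 1023 CPM in the parent.

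Upstream sequences of *Pdgfc*, *Pdgfa* and *Pdgfra*, the PDGF genes tested in every comparison, are shown to display where a core of the antioxidant response element, the DNA element of NRF2, does and does not occur. They are taken from RefSeq on GRCm38.p6 and run from 250 bases before to 50 bases after a start site. The windows are chr3:81036166-81036465 on the plus strand for *Pdgfc*, chr5:138994232-138994531 on the minus strand for *Pdgfa* and chr5:75152001-75152300 on the plus strand for *Pdgfra*. Capitals mark matches to TGACNNNGC, searched on both strands.
*Pdgfc*: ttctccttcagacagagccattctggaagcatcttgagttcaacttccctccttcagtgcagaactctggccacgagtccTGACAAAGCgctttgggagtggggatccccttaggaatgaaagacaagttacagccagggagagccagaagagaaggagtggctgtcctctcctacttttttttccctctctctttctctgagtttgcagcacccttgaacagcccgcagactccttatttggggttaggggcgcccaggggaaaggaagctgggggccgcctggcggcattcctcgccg
*Pdgfa*: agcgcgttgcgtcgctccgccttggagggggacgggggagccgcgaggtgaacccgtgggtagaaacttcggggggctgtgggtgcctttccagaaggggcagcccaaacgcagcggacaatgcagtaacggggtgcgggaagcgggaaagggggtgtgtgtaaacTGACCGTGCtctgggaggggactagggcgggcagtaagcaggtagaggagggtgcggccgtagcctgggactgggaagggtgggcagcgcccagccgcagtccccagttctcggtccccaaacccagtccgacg
*Pdgfra*: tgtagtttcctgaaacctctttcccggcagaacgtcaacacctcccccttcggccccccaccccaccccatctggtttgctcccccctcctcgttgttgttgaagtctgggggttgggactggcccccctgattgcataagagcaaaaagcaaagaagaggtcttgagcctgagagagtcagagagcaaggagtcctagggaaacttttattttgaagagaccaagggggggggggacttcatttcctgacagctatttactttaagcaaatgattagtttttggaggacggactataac
The match in *Pdgfc* begins 170 bases and that in *Pdgfa* 84 bases before the start site, while the *Pdgfra* window and a second *Pdgfa* window (chr5:138994895-138995194) hold none. The *Pdgfd* window (chr9:6168236-6168535) holds 1 match, 106 bases before the start site. In all, 5 windows of 4 member genes were found. The motif occurs in 4071 of 32851 windows of this length (12.4%), so a match is common, and it describes letters and not binding.

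Of the 6 genes, 4 passed the filter on low values (3 CPM or more when the 15 samples are summed), namely *Pdgfra*, *Pdgfrb*, *Pdgfa* and *Pdgfc*. *Pdgfrb* had a sum of 17.0 CPM, of which 4.39 CPM lay outside clone #1, so it would have passed without that clone. *Pdgfb* (sum 0.555 CPM) and *Pdgfd* did not pass and were not tested. The plot of levels by sample shows all 6 genes.

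**Figure D1:**
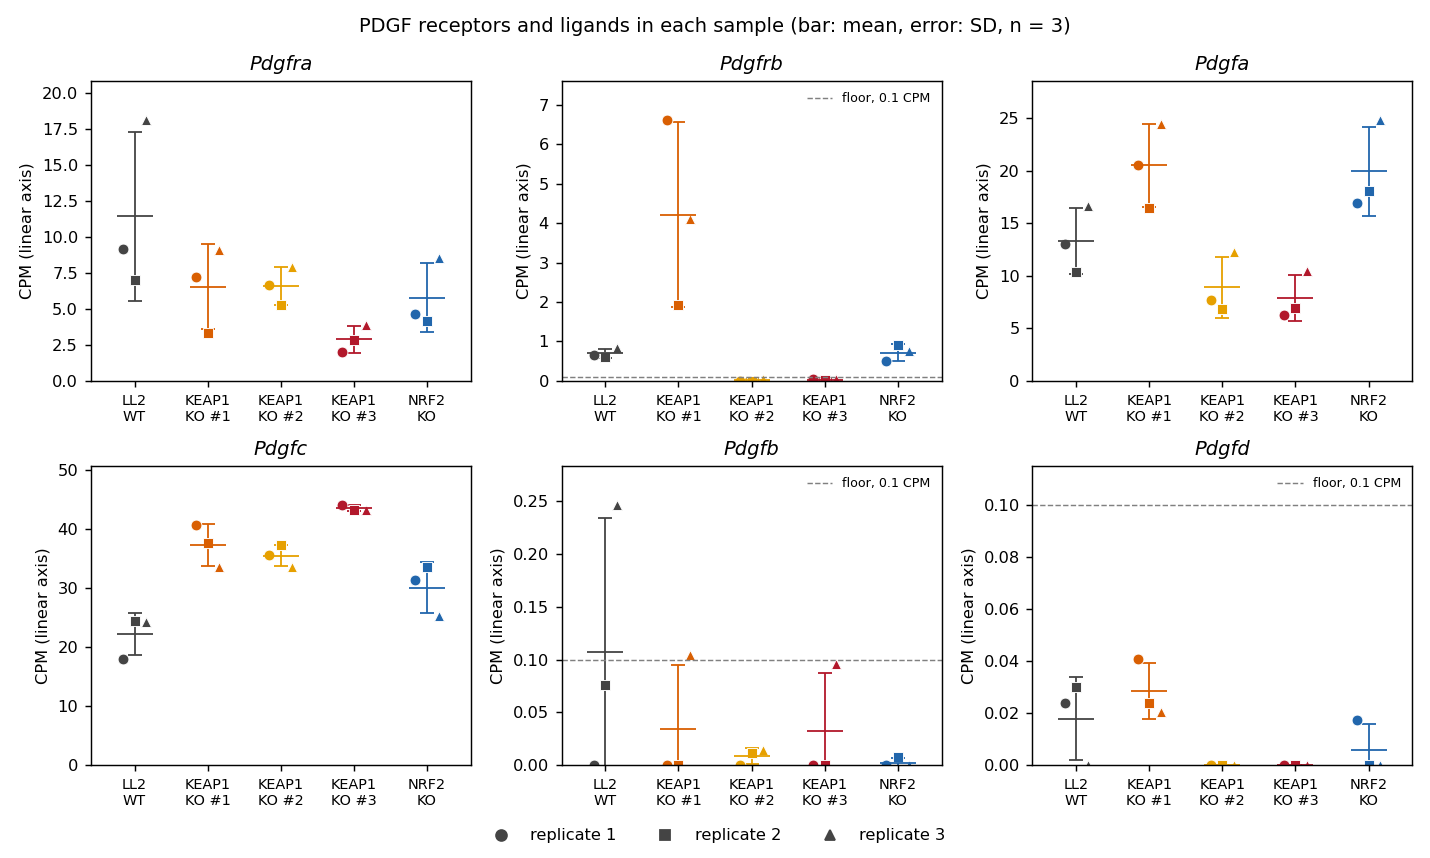
CPM of the 6 PDGF genes in each sample of the 5 lines, on linear axes that differ between panels; symbols are replicates 1 to 3, the horizontal bar is the mean, the error bar is the SD (n = 3, drawn down to 0 at most) and the dashed line is the floor of 0.1 CPM. *Pdgfrb* stands at 1.92 to 6.62 CPM in clone #1 and under the floor in clone #2 and #3, *Pdgfc* is higher in all 12 samples of edited lines than in any LL2 WT sample, and *Pdgfb* and *Pdgfd* lie near 0.

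The receptor genes came first. *Pdgfrb*, which encodes the receptor for PDGF-B and PDGF-D, lies on chromosome 18 of GRCm38 (61045150 to 61085061, plus strand). In LL2 WT it measured 0.654, 0.614 and 0.822 CPM in replicates 1, 2 and 3. It measured 6.62, 1.92 and 4.11 CPM in clone #1, a mean of 4.21 ± 2.35 CPM against 0.697 ± 0.110 CPM in LL2 WT, or 6.05-fold. The 3 samples of this clone were widely spread and all lay above every LL2 WT sample, which holds for 24.6% of the 14652 genes tested.

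Clone #2 gave 0, 0 and 0.0418 CPM for *Pdgfrb* and clone #3 gave 0.0515, 0.0125 and 0.0402 CPM. All 6 samples were under the floor and below every LL2 WT sample, so these clones were at least 6.97-fold lower than LL2 WT, with the floor taken per library. Genes lower in every sample made up 18.6% of genes tested for clone #2 and 18.0% for clone #3. The log2 differences from LL2 WT on the log2(CPM + 0.1) scale were 2.28 for clone #1, −2.82 for clone #2 and −2.57 for clone #3, and the size of the last 2 depends on the pseudocount because the values lie under the floor. *NRF2* KO gave 0.499, 0.908 and 0.752 CPM, which overlapped LL2 WT on both sides. Its log2 fold change was 0.02 with a 95% interval of ± 0.87 (adjusted p = 0.994, limma), and its sign turned with rescaling (−0.02) and without single replicates (lowest −0.15). In order of the mean, clone #1 was highest, *NRF2* KO and LL2 WT overlapped, and clone #3 and #2 overlapped below them.

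Mural cell markers were read beside *Pdgfrb*, since this receptor defines those cells in vessels. Of the 12 markers, *Kcnj8* was at 0 in all samples and 4, among them *Kcnj8*, *Rgs5* and *Cspg4*, were under the floor in all samples. The summed list ran from 9.52 to 11.8 CPM in LL2 WT, 18.1 to 21.9 CPM in clone #1, 30.2 to 31 CPM in clone #2, 24.7 to 25.5 CPM in clone #3 and 8.78 to 10.6 CPM in *NRF2* KO. Most of this sum was *Anpep*, an aminopeptidase that many other cells make, with line means of 6.39 to 26.5 CPM. The other mural markers did not share 1 pattern. *Tagln*, an actin-binding protein of smooth muscle, was called higher in clone #2 (1.54, adjusted p = 0.0203, limma) and #3 (1.44, adjusted p = 0.0278, limma), where *Pdgfrb* was low. Its log2 fold changes of 1.26 in clone #1, where *Pdgfrb* was high, and 0.95 in *NRF2* KO did not pass (adjusted p = 0.0617 and 0.463, limma). Clones #2 and #3 differed from clone #1 in *Tagln* by 0.28 and 0.19, not past the threshold (adjusted p = 0.78 and 0.86, limma). *Mcam*, an adhesion molecule, was called lower in clone #2 (−1.05, adjusted p = 0.0457, limma) and #3 (−1.69, adjusted p = 0.00395, limma), and its mean in clone #1 was also under that of the parent (0.423 against 0.928 CPM). *Acta2*, smooth muscle actin, averaged 0.402 ± 0.150 CPM in the parent, 1.80 ± 1.92 CPM in clone #1, 0.155 ± 0.0276 CPM in clone #2 and 0.177 ± 0.0594 CPM in clone #3, but 0.118 ± 0.120 CPM in *NRF2* KO. The log2 differences of *Acta2* from LL2 WT were not past the threshold (adjusted p = 0.0835, 0.239, 0.298 and 0.436 in limma for clones #1, #2, #3 and *NRF2* KO). Between clones *Acta2* was called lower in #2 and #3 than in #1 (−2.43 and −2.33, adjusted p = 0.0181 and 0.0206, limma), where *Pdgfrb* was also lower than in #1. The part of such markers in the *Pdgfrb* values was not tested.

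*Pdgfra* encodes the receptor for PDGF-A and PDGF-C and lies on chromosome 5 (75152292 to 75198215, plus strand). It measured 9.16, 7.02 and 18.1 CPM in LL2 WT. Clone #3 gave 2.00, 2.84 and 3.86 CPM, a mean of 2.90 ± 0.933 CPM that is 25.4% of the LL2 WT mean of 11.4 ± 5.88 CPM. All 3 samples of this clone lay below every LL2 WT sample, as held for 18.0% of genes tested. The fall was called: the log2 fold change was −1.87 (SE 0.42, 95% interval ± 0.91, adjusted p = 0.00462, limma). A gene is termed called here at a Benjamini-Hochberg adjusted p under 0.05 over all genes tested and a log2 fold change beyond 1 in either direction, and 7.34% of genes tested were called lower in clone #3. In bulk RNA, fewer cells that express a gene and less RNA per cell cannot be told apart.

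The other lines overlapped LL2 WT in *Pdgfra*. Clone #1 gave 7.20, 3.33 and 9.08 CPM, clone #2 gave 6.65, 5.28 and 7.91 CPM, and *NRF2* KO gave 4.61, 4.17 and 8.52 CPM. Their log2 fold changes, −0.80, −0.68 and −0.93 respectively (95% interval ± 0.91 each), did not pass the test (adjusted p = 0.194, 0.239 and 0.437, limma). Between clones, clone #3 minus #1 was −1.08 (adjusted p = 0.124, limma) and clone #3 minus #2 was −1.19 (adjusted p = 0.372, limma), neither of them called, and 0.485% of genes tested were called either way between #3 and #2. The labels state no pairing of replicates. Deviations from the line means correlated within each replicate number between clones #2 and #3 (r = 0.278, 0.126 and 0.546). In a fit with the replicate number as a block, clone #3 minus #2 was called (−1.19, adjusted p = 0.0247, limma). In that fit clone #3 minus #1 was called too (−1.08, adjusted p = 0.00700, limma), although replicate 1 did not correlate between these clones (r = −0.0221). Clones #2 and #1 differed by 0.11 ± 0.91.

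Both receptors were thus lower in clone #3 than in LL2 WT, whereas clone #1 had the highest *Pdgfrb* of all lines beside a *Pdgfra* that overlapped LL2 WT. Clone #2 had *Pdgfrb* under the floor and *Pdgfra* at 6.61 ± 1.32 CPM.

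Among the ligands, *Pdgfc* and *Pdgfa* were measured well above the floor in every sample. *Pdgfc* encodes PDGF-C, which is secreted with a CUB domain that proteases must remove, and lies on chromosome 3 (81036416 to 81214040, plus strand). It measured 18.1, 24.5 and 24.3 CPM in LL2 WT. The *KEAP1* KO clones gave 40.8, 37.7 and 33.6 CPM (#1), 35.6, 37.4 and 33.7 CPM (#2) and 44.2, 43.3 and 43.3 CPM (#3), and *NRF2* KO gave 31.4, 33.6 and 25.3 CPM. Every sample of an edited line lay above every LL2 WT sample. The same held for 24.6%, 23.4% and 22.0% of genes tested in clone #1, #2 and #3 and for 8.68% in *NRF2* KO.

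The rise of *Pdgfc* in the *KEAP1* KO clones was 1.68-fold, 1.60-fold and 1.96-fold of the LL2 WT mean. The log2 fold changes were 0.75 (adjusted p = 0.00158), 0.68 (adjusted p = 0.00187) and 0.98 (adjusted p = 0.00013) in limma, each with a 95% interval of ± 0.29. All passed an adjusted p of 0.05, as did 23.2%, 31.9% and 31.4% of genes tested, and none was called because each stayed within 1 on the log2 scale. In clone #3 *Pdgfc* went over this size without LL2 WT replicate 2 (1.05) or replicate 3 (1.05). *NRF2* KO stood at 30.1 ± 4.33 CPM, 1.35-fold of LL2 WT, with a log2 fold change of 0.44 ± 0.29 that did not pass (adjusted p = 0.218, limma). For *NRF2* KO, 0.621% of genes tested had an adjusted p under 0.05. The clones did not differ from each other past the threshold in *Pdgfc*, with log2 differences of −0.07, 0.23 and 0.29 (± 0.29 each) for #2 minus #1, #3 minus #1 and #3 minus #2 (adjusted p = 0.827, 0.317 and 0.587, limma), and the first turned positive with rescaling (0.02).

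*Pdgfa*, the gene of PDGF-A, lies on chromosome 5 (138976014 to 138997370, minus strand). It measured 13.0, 10.35 and 16.6 CPM in LL2 WT. It measured 20.6, 16.5 and 24.5 CPM in clone #1, and 7.71, 6.83 and 12.24 CPM and 6.29, 6.93 and 10.4 CPM in clone #2 and #3. Clone #1 thus ranged above and clone #2 and #3 below most LL2 WT samples, with overlap in each case. The log2 fold changes against LL2 WT were 0.63 (adjusted p = 0.107), −0.59 (adjusted p = 0.105) and −0.76 (adjusted p = 0.0446) in limma, with a 95% interval of ± 0.57 each. That of clone #3 passed an adjusted p of 0.05 and was too small to be called.

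The clones differed from each other in *Pdgfa*. Every sample of clone #2 and of #3 lay below every sample of clone #1, as did 20.9% and 21.0% of genes tested. The difference of #2 minus #1 was −1.22 (SE 0.27, adjusted p = 0.0107, limma) and that of #3 minus #1 was −1.39 (SE 0.27, adjusted p = 0.00487, limma). Both were called, against 2.79% and 2.60% of genes tested called lower in these comparisons. The call of #2 minus #1 was lost without clone #2 replicate 1 (−1.14, adjusted p = 0.0508, limma) or replicate 2 (−1.05, adjusted p = 0.0560, limma). Clones #3 and #2 differed by −0.17 ± 0.57 (adjusted p = 0.996, limma), and without clone #2 replicate 3 the sign turned (0.08). *NRF2* KO gave 16.9, 18.1 and 24.8 CPM, all above every LL2 WT sample, as held for 8.68% of genes tested. Its log2 fold change of 0.58 ± 0.57 did not pass (adjusted p = 0.437, limma).

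**Figure D2:**
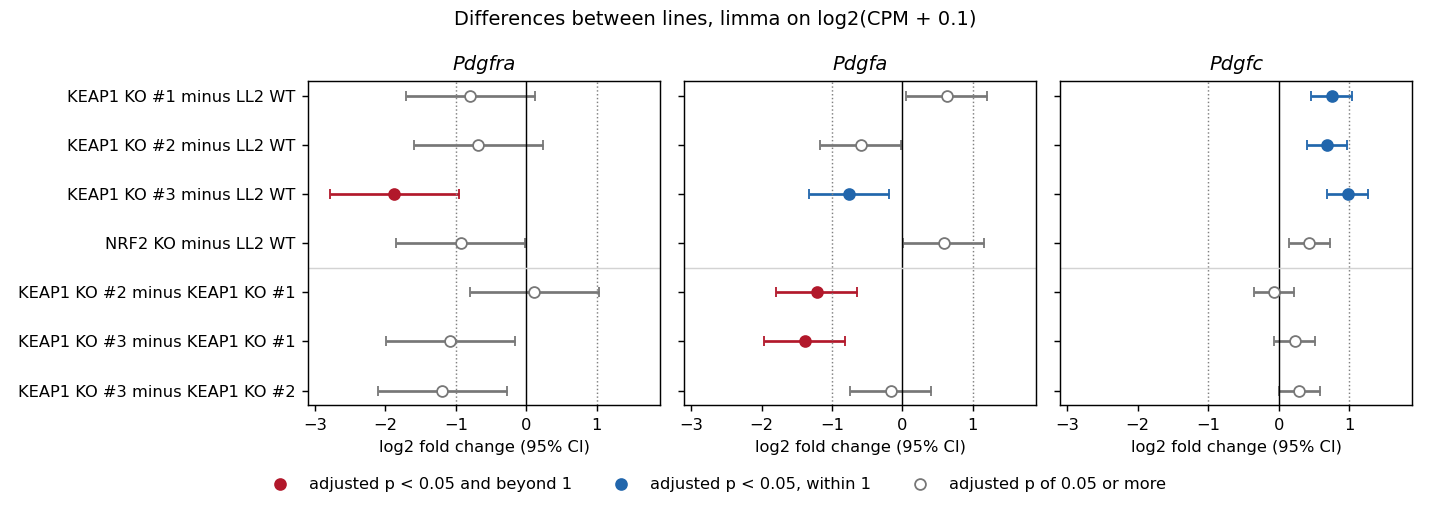
Log2 fold change of *Pdgfra*, *Pdgfa* and *Pdgfc* on the log2(CPM + 0.1) scale for 4 comparisons with LL2 WT and, under the grey line, 3 comparisons between *KEAP1* KO clones; points are limma estimates, bars are 95% intervals, and dotted lines mark −1 and 1. *Pdgfc* lies to the right of 0 in all 4 comparisons with LL2 WT, *Pdgfa* lies on either side, and the filled red points are *Pdgfra* in clone #3 (−1.87) and *Pdgfa* in clones #2 (−1.22) and #3 (−1.39) against clone #1.

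Counted over the 3 tested members other than *Pdgfrb*, 1 was called in clone #3 against LL2 WT (*Pdgfra*) and 0 in clone #1, clone #2 and *NRF2* KO. At an unadjusted p under 0.05, *Pdgfa* and *Pdgfc* would pass in clone #1 and #2, and all 3 in clone #3 and *NRF2* KO, beside 36.3%, 42.9%, 42.6% and 11.2% of all genes tested in these lines. The shares of all genes called higher and lower were 4.55% and 3.99% in clone #1, 5.94% and 7.75% in clone #2, and 0.0887% and 0.375% in *NRF2* KO. In clone #3, 6.09% were called higher. Over all genes tested the median log2 fold change was 0.11 in clone #1 and at most 0.04 in the other lines, and it fell to 0.01 in clone #1 after rescaling by median ratios.

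*Pdgfa* and *Pdgfra* also followed the replicate number. Replicate 3 was highest in 5 of 5 lines for both genes, in 2 of 5 lines for *Pdgfrb* and in 0 of 5 for *Pdgfc*. What sets replicate 3 apart is not given in the labels. Differences from LL2 WT were read within replicate 3 and over replicates 1 and 2. For *Pdgfra* in clone #3 they were −2.20 and −1.71. For *Pdgfa* they were 0.55 and 0.66 in clone #1, −0.44 and −0.67 in clone #2, −0.67 and −0.80 in clone #3, and 0.58 and 0.59 in *NRF2* KO. For *Pdgfc* they were 0.47 and 0.89, 0.47 and 0.79, 0.83 and 1.05, and 0.06 and 0.62 in the same order of lines. The directions were thus the same within both sets of replicates.

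The balance of the 2 detected ligands was read within each sample as log2 of *Pdgfc* CPM over *Pdgfa* CPM, a measure chosen after the values were seen and given as a description. An exact permutation test against LL2 WT gave p = 0.1 for clones #2 and #3. That is the lowest value 3 against 3 samples allow, so the test cannot decide. The log2 ratio was 0.48, 1.24 and 0.55 in LL2 WT, and 0.99, 1.195 and 0.46 in clone #1, which overlap. Clone #2 gave 2.21, 2.45 and 1.46 and clone #3 gave 2.81, 2.64 and 2.05, all above the highest LL2 WT sample. *NRF2* KO gave 0.89, 0.90 and 0.03. The mean shift from LL2 WT was 0.12 in clone #1, 1.29 in clone #2, 1.75 in clone #3 and −0.15 in *NRF2* KO. Clones #2 and #3 thus had both less *Pdgfrb* and a *Pdgfc* to *Pdgfa* ratio above that of the parent, and clone #1 had neither.

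**Figure D3:**
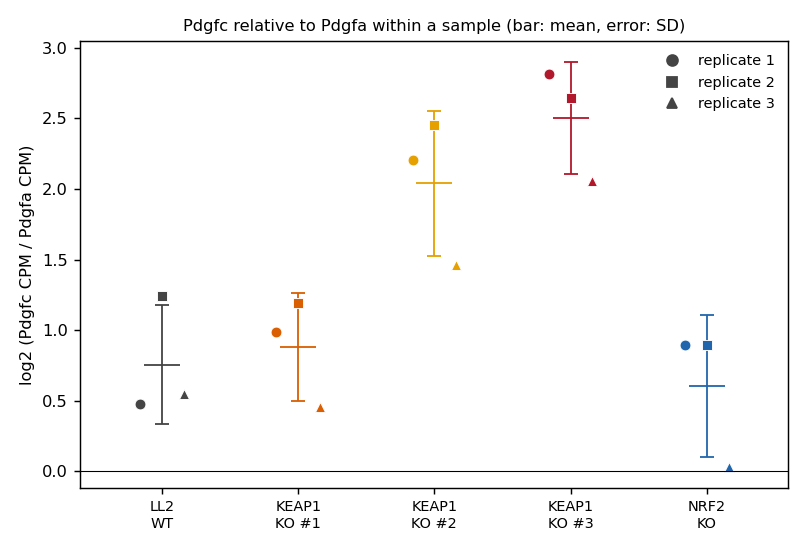
Log2 ratio of *Pdgfc* CPM to *Pdgfa* CPM in each sample of the 5 lines; symbols are replicates 1 to 3, the horizontal bar is the mean and the error bar is the SD (n = 3). Clone #2 (1.46 to 2.45) and clone #3 (2.05 to 2.81) lie above LL2 WT (0.48 to 1.24), while clone #1 and *NRF2* KO overlap it.

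*Pdgfb*, the gene of PDGF-B, lies on chromosome 15 (79995874 to 80014977, minus strand). It was under the floor in 13 of 15 samples and at 0 in 8 of them. The 2 samples over the floor were LL2 WT replicate 3 (0.246 CPM) and clone #1 replicate 3 (0.104 CPM). *Pdgfd*, the gene of PDGF-D, lies on chromosome 9 (6168584 to 6378850, plus strand), was under the floor in all 15 samples and at 0 in 9, and its highest value was 0.0407 CPM. The ligand genes that pair with *Pdgfrb* were therefore not detectable or near the floor at this depth in each of the 5 lines, also in clone #1.

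Reads shared with other transcripts limit some of these values. Of the stretches of 31 bases in the annotated transcripts, 23.3% in *Pdgfa*, 5.57% in *Pdgfra* and 2.54% in *Pdgfc* also occur in another gene on either strand, and 0.0% do in *Pdgfrb*, *Pdgfb* and *Pdgfd*. Which genes hold the shared stretches was not recorded. *Pdgfa* overlaps the antisense gene 6330403L08Rik, not analysed here. The strand setting of the counting is not given in the sources used here, so reads from any stretch that *Pdgfa* shares with this antisense gene cannot be told apart.

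The rest of the pathway was read from 5 lists of 89 genes, of which 84 passed the filter. In clone #1, 5 were called higher and 10 lower, in clone #2 3 and 12, in clone #3 5 and 11, and in *NRF2* KO 0 and 0. Over all genes tested, 8.54%, 13.7%, 13.4% and 0.464% were called in either direction in these lines. At an adjusted p under 0.05 of any size the counts were 33, 29, 30 and 1, beside 23.2%, 31.9%, 31.4% and 0.621% of all genes tested. The median log2 fold change over the lists was 0.02, −0.05, 0.01 and −0.04, beside 0.11, 0.03, 0.02 and 0.04 over all genes tested. The plot of the 5 lists shows where the called genes lie.

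**Figure D4:**
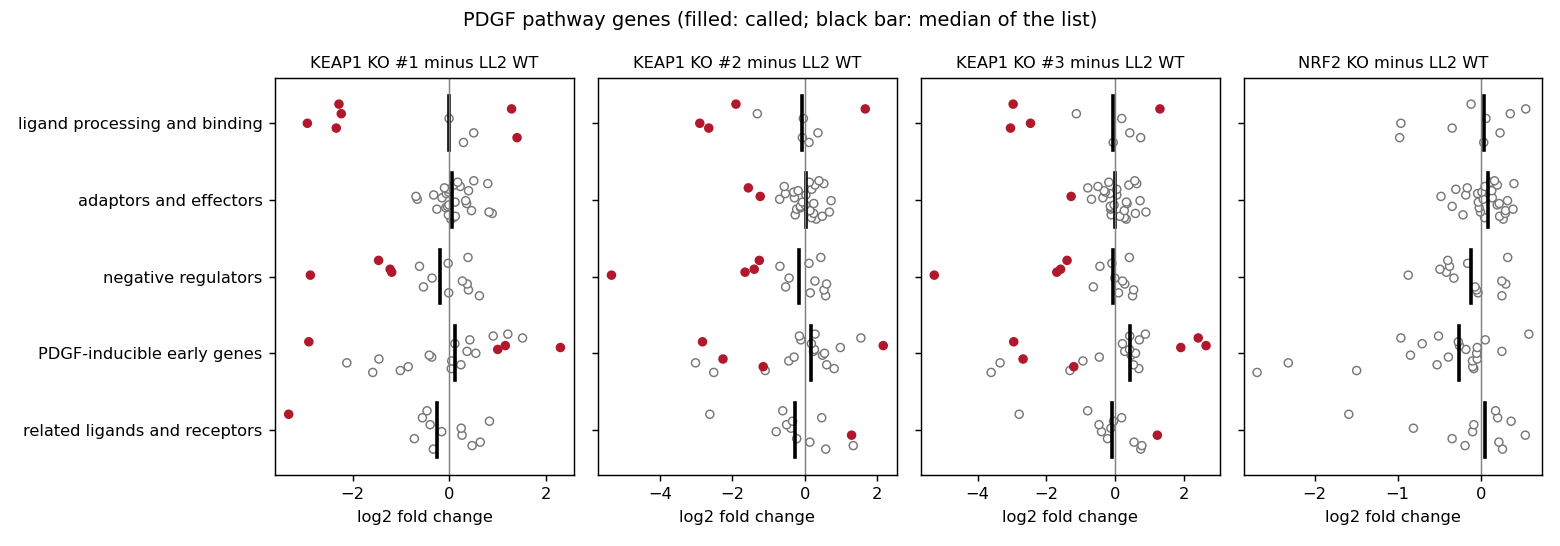
Log2 fold change against LL2 WT on the log2(CPM + 0.1) scale for the tested genes of 5 PDGF pathway lists, with 1 panel per edited line and an axis range that differs between panels; circles are genes, filled circles are called, and the black bar is the list's median. The 4 negative regulators called lower in each *KEAP1* KO clone and the called genes of ligand processing stand far from medians between −0.19 and 0.00, and no gene is filled in *NRF2* KO.

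Ligand processing and binding comprised 10 genes, of which 9 were tested. *Plat* and *Plau* encode tissue-type and urokinase-type plasminogen activator, proteases known to activate PDGF-C and PDGF-D, respectively. *Plat* averaged 35.8 ± 4.70 CPM in the parent and fell by 2.34, 2.65 and 3.04 on the log2 scale in clone #1, #2 and #3 (adjusted p = 0.000425, 9.61e-05 and 2.71e-05, limma). *Plau* averaged 211 ± 138 CPM in the parent and 24.2 to 32.6 CPM in the clones, a log2 shift of −2.94, −2.90 and −2.46 (adjusted p = 0.00100, 0.000678 and 0.00201, limma). In *NRF2* KO their log2 fold changes were −0.34 and −0.96 (adjusted p = 0.777 and 0.503, limma). *Plat* was thus lower in the clones in which *Pdgfc* mRNA was higher, while *Pdgfd* was under the floor in every sample.

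*Sparc*, a matrix protein that binds PDGF-B, averaged 288 ± 23.4 CPM in the parent and fell by 2.29, 1.90 and 2.97 on the log2 scale in clones #1, #2 and #3 (adjusted p = 0.000402, 0.000912 and 2.62e-05, limma). *Lrp1*, an endocytic coreceptor of PDGFRB, averaged 33.3 ± 12.6 CPM in the parent and 7.51 ± 3.98 CPM in clone #1, where it was called lower (−2.24, adjusted p = 0.00744, limma). Its log2 fold changes of −1.31 and −1.13 in clones #2 and #3 did not pass (adjusted p = 0.0671 and 0.109, limma). Genes called higher were *Nrp1*, a neuropilin coreceptor, in all 3 clones (1.29, 1.67 and 1.29, adjusted p = 0.00301, 0.000325 and 0.00198, limma) and *Pcsk6*, a proprotein convertase, in clone #1 (1.41, adjusted p = 7.64e-05, limma). Both were named after their values were seen. *Furin*, the convertase known to process PDGF-A and PDGF-B, averaged 26.4 to 33.9 CPM in the 5 lines and overlapped LL2 WT in each edited line.

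Of 28 adaptors and effectors, all tested, none was called in clone #1 or *NRF2* KO, where 7 and 0 had an adjusted p under 0.05, beside 23.2% and 0.621% of all genes tested. *Plcg1*, phospholipase C gamma, averaged 27.8 ± 6.11 CPM in the parent and was called lower in clone #2 (−1.23, adjusted p = 0.0113, limma) and #3 (−1.29, adjusted p = 0.00887, limma). *Stat5a* was called lower in clone #2 (−1.56, adjusted p = 0.00169, limma). The *Plcg1* call in clone #2 was lost without replicate 1 (−1.10, adjusted p = 0.0506, limma) or replicate 2 (−1.06, adjusted p = 0.0538, limma) of that clone. List medians of 0.06, 0.02, 0.00 and 0.08 in the 4 edited lines lay close to those of all genes.

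Negative regulators comprised 14 genes, all tested, and the same 4 genes were called lower in each *KEAP1* KO clone, with 0 called higher. Of all genes tested, 3.99%, 7.75% and 7.34% were called lower in these clones. The 4 genes were *Spry1*, *Spry2* and *Spry4*, Sprouty inhibitors of receptor tyrosine kinase signaling, and *Dusp6*, a phosphatase of ERK. *Spry1* averaged 5.60 ± 3.15 CPM in the parent and 0.644 ± 0.301 CPM in clone #1 (log2 fold change −2.88, adjusted p = 0.00197, limma). All samples of clone #2 and #3 were under the floor for *Spry1*, at least 56.0-fold lower than LL2 WT. *Spry2* fell by 1.19, 1.65 and 1.70 on the log2 scale from 60.0 ± 24.1 CPM in LL2 WT (adjusted p = 0.0113, 0.00101 and 0.000783, limma). *Spry4* fell by 1.22, 1.40 and 1.59 (adjusted p = 0.00902, 0.00286 and 0.00113, limma). *Dusp6* fell by 1.46, 1.25 and 1.40 from 275 ± 143 CPM (adjusted p = 0.0119, 0.0191 and 0.0108, limma).

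These 4 genes stood at −0.87, −0.41, −0.49 and −0.40 in *NRF2* KO in the order above, none past the threshold. Without LL2 WT replicate 3 the calls of *Spry2* in clone #1 (−0.89) and *Dusp6* in clone #2 (−0.86) were lost, and the *Dusp6* calls were also lost without clone #1 replicate 2 (−1.33) and without clone #2 replicate 1 (−1.19) or 2 (−1.17). List medians were −0.19, −0.16, −0.06 and −0.11. In clones #2 and #3 the called inhibitors and *Pdgfrb* were lower together, whereas in clone #1 the inhibitors were lower and *Pdgfrb* was higher.

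Of 21 genes known to be induced early by PDGF, all tested, 3 were called higher and 1 lower in clone #1, 1 and 3 in clone #2, and 3 and 3 in clone #3. The shares of all genes tested called higher and lower were 4.55% and 3.99%, 5.94% and 7.75%, and 6.09% and 7.34%. *Dusp1*, a phosphatase of MAP kinases, was called higher in all 3 clones (1.16, 2.16 and 2.63, adjusted p = 0.00883, 7.92e-05 and 1.40e-05, limma), from 4.14 ± 1.67 CPM in the parent to 9.21, 18.0 and 25 CPM. *Atf3*, a stress-induced transcription factor, was called higher in clones #1 (2.31) and #3 (1.90), *Cxcl1*, a chemokine, in clone #3 (2.40), and *Nr4a1* in clone #1 (1.01). *Egr3*, a transcription factor, was called lower in clones #2 (−2.26) and #3 (−2.68), as was *Jun* (−1.15 and −1.21). *Has2*, hyaluronan synthase, was called lower in all 3 clones. Its level was 0.951 ± 0.316 CPM in the parent, and all samples of clones #1 and #3 were under the floor, at least 9.51-fold lower.

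*Has2*, *Jun* and *Nr4a1* were named after their values were seen. *Fos* and *Egr1*, also named so, ranged from 0.758 to 173 CPM and from 1.19 to 63.6 CPM within LL2 WT and were not called in any line. Leaving out 1 library ended some of these calls. That of *Dusp1* in clone #1 was lost without LL2 WT replicate 2 (1.00) or clone #1 replicate 3 (0.94). That of *Cxcl1* in clone #3 was lost without LL2 WT replicate 1 (2.22) or 2 (1.93) or clone #3 replicate 3 (2.00). For *Nr4a1* in clone #1 the call was lost without LL2 WT replicate 1 (1.02) or 2 (0.95) or clone #1 replicate 3 (0.80). For *Jun* it was lost without LL2 WT replicate 3 (−0.75 in clone #2, −0.81 in clone #3) and without replicate 1 or 2 of the clone itself (−1.06 and −1.02 in clone #2, −1.06 and −1.14 in clone #3). The list's medians were 0.12, 0.18, 0.41 and −0.26.

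Related ligands and receptors comprised 16 genes with 12 tested. Called genes were *Pgf*, placental growth factor, lower in clone #1 (−3.33, adjusted p = 0.0357, limma), and *Flt3*, a receptor kinase of the same class as the PDGF receptors, higher in clone #2 (1.29, adjusted p = 0.00617, limma) and #3 (1.22, adjusted p = 0.00862, limma). *Flt3* rose from 0.133 ± 0.00120 CPM to 0.471 ± 0.0586 CPM and 0.441 ± 0.0166 CPM, which is close to the floor. *Pgf* ranged from 0.611 to 5.60 CPM within LL2 WT, and its call was lost without LL2 WT replicate 1 (−3.23) or 3 (−2.63) or clone #1 replicate 1 (−3.29) or 2 (−2.78). Both genes were named after their values were seen. List medians were −0.24, −0.28, −0.09 and 0.05.

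The genes whose levels followed each member most closely over the 15 samples were found by Pearson r of log2(CPM + 0.1) among 11675 genes that averaged 1 CPM or more. The points share lines and replicate numbers, so r is given as a description. For *Pdgfrb* these were *Elovl5*, a fatty acid elongase (r = 0.959), *Prrx2*, a homeobox factor of mesenchyme (r = 0.947), *Mlph* (r = 0.937), *Msrb3* (r = 0.936) and *Terf1* (r = 0.931). Clone #1 had the highest line mean for each of these genes, which follows largely from picking them by likeness to *Pdgfrb*. *Prrx2* averaged 4.89 CPM in the parent, 8.02 CPM in clone #1, 1.81 and 1.92 CPM in clone #2 and #3, and 4.98 CPM in *NRF2* KO. *Mlph* averaged 3.18, 7.37, 0.633, 0.430 and 1.88 CPM in the same order.

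*Pdgfa* was followed most closely by *Arhgef10* (r = 0.976), *Cnot6l*, a deadenylase (r = 0.970), and *Creb1*, a cyclic AMP responsive transcription factor (r = 0.963). *Pdgfc* was followed by *Mphosph8* (r = 0.949), *Ccdc127* (r = 0.948) and *Slc25a16* (r = 0.940), and *Pdgfra* by *Pon3*, a lactonase (r = 0.940), *Zfp277* (r = 0.908) and *Cd276*, an immune checkpoint molecule (r = 0.890). *Ccdc127* averaged 47.9 CPM in the parent and 57.7 to 73.4 CPM in the edited lines, the same order as *Pdgfc*. *Pon3* averaged 29.4 CPM in the parent and 17.2 CPM in clone #3, the highest and the lowest line as for *Pdgfra*. These shared orders follow largely from picking the genes by r and are no separate result.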

How the data were processed

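RNA of LL2 WT, 3 *KEAP1* KO clones and 1 *NRF2* KO clone (3 biologic replicates each, 15 samples) was sequenced as 50 bp paired ends. The authors pseudo-aligned the reads with Kallisto to mouse cDNA and deposited CPM per gene, which are fractional and sum to 999412 to 999525 CPM per sample, so read counts are not in the values used. The paper names GRCm38.p6, and the submitters' processing notes name GRCm39 and bcl2fastq 1.9.0. The floor of 3 reads rests on the paper's average of 30 M reads, and the depth of each sample is unknown. Column names gave each sample, 0 columns were left unused, and 1 entry without a symbol (0.0214% to 0.0491% of a sample) was left out.

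Following the paper, genes were kept when their CPM summed to 3 or more (14652 of 35880, 21228 removed). limma 3.58.1 in R 4.3.3 was fitted to log2(CPM + 0.1) with 5 line means, contrasts and empirical Bayes with a trend, and Benjamini-Hochberg adjustment covered every gene tested. The pseudocount understates changes of low genes. The steps were tested on simulated data. Python 3.11.15 with pandas 2.3.3, numpy 2.4.6, scipy 1.17.1 and matplotlib 3.10.9 drew values and figures.

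The members and lists were chosen with earlier results of these data known. Genes named are the 6 members, up to 4 called genes per pathway list with the largest change and a mean of at least 1 CPM, the 5 genes most like *Pdgfrb* and the 3 most like each other member with a mean of at least 1 CPM, and *Keap1*, *Nfe2l2* and *Nqo1*, besides genes stated as named later and markers. Other pseudocounts, filters, scalings, models and left-out replicates were tried.

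Replicate numbers in the labels do not state a shared day. Over 11676 genes, deviations from the line means correlated within every number between clone #2 and #3 alone (r = 0.278, 0.126 and 0.546). In each other comparison replicate 1 did not reach 0.1. There r was 0.227 to 0.529 for replicate 2 and 0.422 to 0.631 for replicate 3, so these replicates shared deviations across lines.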

Additional observations from a re-analysis of the deposited data

Results flagged for a closer look

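*Pdgfa* moved apart between *KEAP1* KO clones: it differed by −1.22 between #2 and #1 and by −1.39 between #3 and #1 on the log2 scale (adjusted p = 0.0107 and 0.00487, limma), lower in 3 of 3 samples each time. *Pdgfrb* moved in opposite directions against LL2 WT, by 2.28 in clone #1 and by −2.82 and −2.57 in clone #2 and #3, with every sample of a clone on its side. This difference was not tested, because it was among the reasons for choosing the genes. With 3 replicates per line, samples were not screened for single outlying values.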

How the results depend on the processing

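Over pseudocounts of 0.05, 0.5 and 1 CPM, other filters, rescaling by median ratios, quantile normalization, 2-line models, empirical Bayes without a trend, vooma weights, a replicate block and replicate 3 as a batch term, the number of called members among *Pdgfra*, *Pdgfa* and *Pdgfc* did not move in any line against LL2 WT. With single replicates left out it ranged from 1 to 2 in clone #3 (2 without LL2 WT replicate 2 or 3). Between clones it ranged from 0 to 1 for #2 minus #1, and from 1 to 2 for #3 minus #1 (2 without clone #1 replicate 2, where *Pdgfra* was −1.50). With the replicate block it was 2 for #3 minus #1 and 1 for #3 minus #2, and 2 and 1 with replicate 3 as a batch term, in each case through *Pdgfra* (−1.08, adjusted p = 0.00700, and −1.19, adjusted p = 0.0247, with the block in limma). Replicate 1 correlated by number only between clones #2 and #3, whereas replicates 2 and 3 did so in the other comparisons too (for #3 minus #1, r = 0.227 and 0.422). The block changed no other call of a member. Over all genes the block moved the calls from 1251 to 1597, 2006 to 2288, 1967 to 2270 and 68 to 179 in clone #1, #2, #3 and *NRF2* KO, and from 671 to 903, 679 to 893 and 71 to 135 for #2 minus #1, #3 minus #1 and #3 minus #2.

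The count of pathway genes called in *NRF2* KO rose from 0 to 1 with a pseudocount of 0.05 CPM and with rescaling (*Pcsk6*, −1.004 and −1.02), with the replicate block and replicate 3 as a batch term (*Egr1*, −2.32), and ranged from 0 to 1 with single replicates left out (*Pcsk6*, when replicate 3 of LL2 WT or replicate 2 of *NRF2* KO was dropped). Small differences changed sign: *Pdgfc* in #2 minus #1 with rescaling (0.0205), *Pdgfrb* in *NRF2* KO with rescaling (−0.0247) and from −0.149 to 0.226 with replicates left out, *Pdgfra* in #2 minus #1 from −0.305 to 0.406, and *Pdgfa* in #3 minus #2 from −0.384 to 0.0820. The *Pdgfrb* difference in clone #2 was −0.74, −1.22 and −3.60 with pseudocounts of 1, 0.5 and 0.05 CPM, and −0.71, −1.16 and −3.16 in clone #3. Among the named pathway genes, *Jun* in clones #2 and #3, *Flt3* in #3 and *Dusp6*, *Dusp1* and *Pgf* in #1 also lost their calls in 2-line models, as did *Has2*, *Flt3* and *Nr4a1* with a pseudocount of 1 CPM, *Flt3* and *Nr4a1* with 0.5 CPM, *Nr4a1* with rescaling, and *Pgf* with vooma weights and without a filter. The cause of these shifts was not tested. Depth limits *Pdgfb*, *Pdgfd* and *Pdgfrb* in clones #2 and #3, where values under 0.1 CPM cannot be ranked.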

Other observations

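*Col3a1*, a fibrillar collagen of fibroblasts, averaged 436 ± 127 CPM in the parent, 12.4 ± 5.38 CPM in clone #1, 4.04 ± 2.48 CPM in clone #2, 0.325 ± 0.321 CPM in clone #3 and 318 ± 124 CPM in *NRF2* KO. All 9 samples of the *KEAP1* KO clones lay below every LL2 WT sample, clone #1 with its higher *Pdgfrb* included. Most of the summed level of the 9 fibroblast markers was *Vim*, vimentin, and *S100a4*, with parent means of 4289 and 1897 CPM. *Vim* was called lower in the 3 clones (−1.19, −1.33 and −1.27, adjusted p = 0.000437, 0.000107 and 0.000143, limma). *S100a4* had a higher mean in clone #3 (3080 CPM, log2 difference 0.79, adjusted p = 0.0373, limma), while *Thy1* and *Dcn* differed there by 0.23 and 0.12 (adjusted p = 0.707 and 0.853, limma). In clone #1, clone #2 and *NRF2* KO *S100a4* differed by −0.46, 0.56 and 1.00, none past the threshold. *Col1a1* (−1.69 and −1.92, adjusted p = 0.0337 and 0.0190, limma) and *Col1a2* (−1.64 and −1.44, adjusted p = 0.00165 and 0.0037, limma) were called lower in clones #2 and #3. Both averaged close to the floor over the 15 samples (0.210 and 0.264 CPM). Of the 7 tested markers, 2 were called lower in clone #1 and 4 in each of clones #2 and #3, with 0 called higher. Of all genes tested, 3.99%, 7.75% and 7.34% were called lower in clones #1, #2 and #3, and 4.55%, 5.94% and 6.09% higher. The 9 markers summed to 6284 to 7067 CPM in LL2 WT, 2632 to 3522 CPM in clone #1, 4271 to 4374 CPM in clone #2, 4561 to 5246 CPM in clone #3 and 7264 to 7640 CPM in *NRF2* KO.

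Of 9 immune and endothelial markers, 1 was at 0 and 3 were under the floor in all samples, and the sum ran from 5.41 to 8.97 CPM in LL2 WT to 20.1 to 42.9 CPM in clone #3. *Cd68*, a lysosomal gene used as a macrophage marker, averaged 2.85 ± 1.39 CPM in the parent and 21.97 ± 12.6 CPM in clone #3. *Lyz2*, lysozyme of macrophages, went the other way, from 1.13 ± 0.475 CPM in the parent to 0.0366 ± 0.0634 CPM in clone #3 (log2 fold change −3.20, adjusted p = 0.000118, limma), and *Adgre1*, a defining macrophage marker, was at 0 in all samples. Of the endothelial markers, *Cdh5* (mean 0.478 CPM over all samples) was called higher in clones #2 and #3 (2.92 and 3.45, adjusted p = 0.000338 and 8.87e-05, limma). *Pecam1* did not pass in any edited line. The 9 lung epithelial markers summed to 299.5 to 667 CPM over all samples.

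Log2 of *Pdgfc* CPM over *Pdgfra* CPM averaged 1.07 ± 0.69 in LL2 WT, 2.63 ± 0.82 in clone #1, 2.45 ± 0.37 in clone #2, 3.96 ± 0.49 in clone #3 and 2.45 ± 0.77 in *NRF2* KO. The samples of the 3 clones lay above those of LL2 WT, while *NRF2* KO replicate 3 (1.57) lay below LL2 WT replicate 2 (1.80). This ratio was read after the values were seen and was not tested.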
